A study of Mus musculus with 12 samples.

Results

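The Notch receptor and ligand genes were examined in sorted spiral ganglion neurons of mouse embryos, in which the transcription factor gene Isl1 was the target of a conditional deletion. The 10 members were taken by symbol: the receptors Notch1, Notch2 and Notch3, the ligands Dll1, Dll3, Dll4, Jag1 and Jag2, the atypical family member Dlk1 and the receptor-modifying enzyme gene Lfng. All 10 were found among the 25674 gene identifiers of the count table. Spiral ganglia from both inner ears of an individual embryo made up each sample at stage E14.5, and 100 cells positive for the red reporter tdTomato were sorted per sample. There were 6 control samples of genotype Neurod1Cre; Rosa26tdTOM and 6 samples, called Isl1CKO, of genotype Neurod1Cre;Isl1loxP/loxP;Rosa26tdTOM, drawn from 4 litters of a mixed C57BL/6 and 129 background. All 12 samples therefore carried the Cre driver, a bacterial artificial chromosome transgene with Cre inserted into Neurod1, so both the deletion and the reporter depend on cells having expressed this transgene. The labels number the samples as technical replicates while the design text calls them biological, so the p-values measure the spread between these samples, which may be in part technical.

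Notch signalling passes between touching cells. A ligand of the Delta or Jagged type on 1 cell binds a NOTCH receptor on its neighbour, proteases then free the intracellular part of the receptor, and this fragment joins the DNA-binding protein RBPJ to switch on repressor genes of the HES and HEY families. In the inner ear the pathway is known for holding back neuroblast formation among neighbouring cells, for the fate of glia, and for the pattern of hair cells and supporting cells.

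Total counts ran from 11895603 to 13857480 per library, and 3 counts, taken as the floor of detection, corresponded to 0.219 to 0.250 CPM, the usual library-scaled read count (this floor covers counting error only). Neuron markers summed to 14940 to 17050 CPM in the controls and 11270 to 13310 CPM in Isl1CKO, so the libraries carried the RNA of the labelled cells. Of these 12 genes, Elavl4, Nefl, Nefm, Gata3 and Shox2 passed an adjusted p of 0.05 in edgeR as lower in Isl1CKO, and Stmn2 as higher. That share of 50.0% stands beside 10.2% of all tested genes. Nefm spanned 2681 to 3693 CPM in controls and 345 to 1611 CPM in Isl1CKO, and Stmn2 1692 to 2211 and 2235 to 3148 CPM. The lower sum was thus not shared by all neuron markers. Isl1 itself, counted over the whole gene, did not separate the groups (log2 fold change -0.15 ± 0.11 SE, edgeR adjusted p = 0.460), and the genotypes rest on the labels. Isl1CKO 2, 3 and 5 held Xist at 62.9, 77.8 and 132 CPM together with Y-linked genes at means of 61.0, 87.3 and 35.7 CPM, although each library should come from an individual embryo. Values without these 3 libraries are given where they end a call. In such pools fewer cells of a type and less RNA per cell cannot be told apart.

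Of the 10 members, only Jag2 passed an adjusted p of 0.05 in edgeR. Jag2 fell in Isl1CKO by 1.04 on the log2 scale, from a mean of 17.5 to 8.51 CPM. The other 5 members that could be tested did not pass, and 4 were too low to be tested. Filtering on low counts left Notch1, Notch2, Dll1, Dll3, Jag1 and Jag2. The share called, 1 of 6, stands beside 10.2% of all 14813 tested genes that passed an adjusted p of 0.05 by the quasi-likelihood test of edgeR, with 5.01% higher and 5.19% lower. The median log2 fold change of the 6 was -0.38, against 0.0045 for all tested genes. Of the 6 estimates 5 lay below 0, beside 7350 of all 14813, and those of Notch1, Notch2 and Dll3 were about 1 SE or less from 0. With no filter on low counts, the 4 untested members had estimates above 0 (Notch3 2.62, Lfng 2.10, Dll4 0.94 and Dlk1 0.66), and none of these 4 passed. None of the 6 had groups that did not overlap, where 6.78% of all tested genes did. The Jag2 call was lost in 13 of 23 alternative settings.

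**Figure D1:**
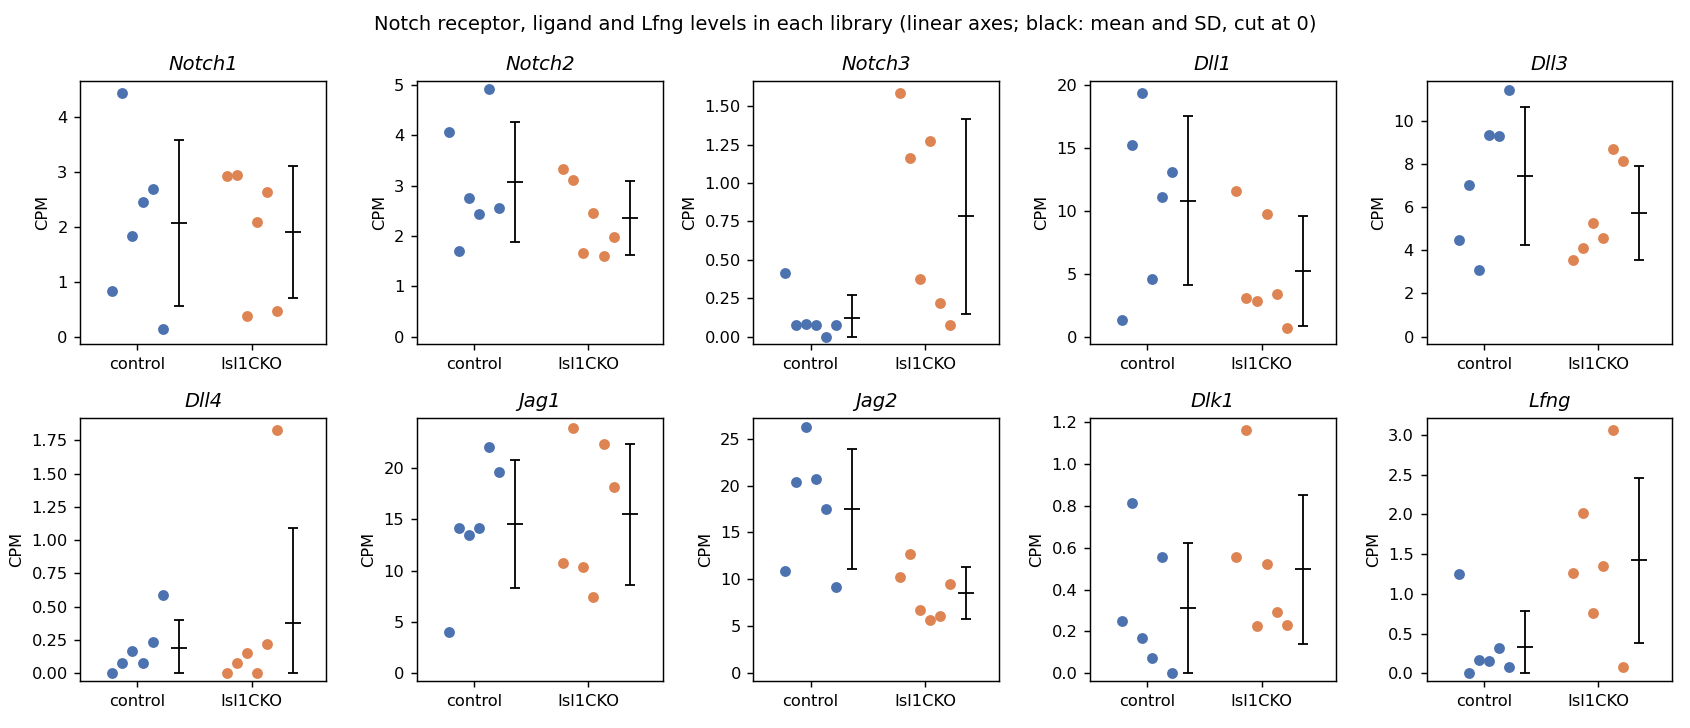
Level of each of the 10 members in CPM (linear vertical axes starting at 0) in 6 control and 6 Isl1CKO libraries, with 1 point per library in replicate order and the mean with its SD in black. Jag2 is lower in Isl1CKO with overlap of the groups. Notch3, Dll4 and Dlk1 lie low in most libraries, and Lfng is over the floor of 3 counts in 2 control and 5 Isl1CKO libraries.

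The receptor genes were all scarce. Notch1 (ENSMUSG00000026923, GRCm38 chromosome 2, 26457903 to 26516663, minus strand) encodes the receptor best known from neural progenitors. In control replicates 1 to 6 it stood at 0.831, 4.44, 1.83, 2.44, 2.69 and 0.146 CPM, and in Isl1CKO replicates 1 to 6 at 2.93, 2.95, 0.376, 2.09, 2.63 and 0.457 CPM. Low and high libraries occurred in both groups, down to 2 counts in control 6, and the ranges overlapped throughout. The means were 2.07 ± 1.51 and 1.91 ± 1.19 CPM (SD, n = 6), and the log2 difference was -0.12 ± 0.69 (SE; edgeR adjusted p = 0.945). The sign of this estimate turned in 4 of 22 alternative settings, so it carries no direction. The spread beyond counting error, which edgeR expresses as a biological coefficient of variation, was 0.797 for Notch1 against a median of 0.699 among 1660 tested genes of like abundance.

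Notch2 (chromosome 3, 98013527 to 98150361, plus strand), a receptor with broad expression, averaged 3.07 ± 1.19 CPM in controls and 2.36 ± 0.736 CPM in Isl1CKO (SD, n = 6). The controls spanned 1.70 to 4.91 CPM around a median of 2.66, and Isl1CKO 1.61 to 3.33 CPM around a median of 2.22. The groups overlapped, with 2 Isl1CKO libraries below the lowest control. On the log2 scale the difference was -0.38 ± 0.38 (SE; edgeR adjusted p = 0.605). Unlike Notch1, it varied little for its abundance, with a coefficient of 0.450 that 14.4% of 1589 like genes fell below. Notch1 and Notch2 each share exonic sequence with an annotated neighbour in GENCODE release M21 (1389 and 541 bases), so a small part of their counts is uncertain.

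Notch3 (chromosome 17, 32120820 to 32166852, minus strand), the receptor of vascular mural cells and some glia, was at or near the floor in controls. Its counts in control replicates 1 to 6 were 5, 1, 1, 1, 0 and 1, and in Isl1CKO replicates 1 to 6 they were 20, 15, 5, 17, 3 and 1. Isl1CKO 1, 2 and 4 lay above every control, while Isl1CKO 6 matched the controls. The means were 0.120 ± 0.148 and 0.782 ± 0.634 CPM (SD, n = 6). With no filter on low counts the log2 fold change was 2.62, which did not pass (edgeR adjusted p = 0.123). Markers of pericytes and vascular smooth muscle summed to 0.417 to 2.93 CPM in controls and 0.376 to 11.1 CPM in Isl1CKO, with 0 of the 8 abundant enough to be tested. The highest library for Rgs5, Kcnj8, Abcc9 and Cspg4 was an Isl1CKO library, and for Pdgfrb, Acta2, Tagln and Des a control. Abcc9 reached the highest of these levels, 5.90 CPM in Isl1CKO 2, and Des was at 0 in every Isl1CKO library. The part of such cells in the Notch3 counts was not tested. Notch3 shares 488 exonic bases with Gm17276 on the opposite strand, so part of these few counts is uncertain.

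Levels per kilobase of exon, with all annotated exons of a gene merged, allow a rough comparison between genes. The length of the transcripts present was not measured. By this scale the receptors ranked Notch4, Notch2, Notch1 and Notch3 at means of 0.377, 0.252, 0.140 and 0.0557 CPM per kb over the 12 libraries. Notch4, the receptor of endothelium and no member here, held the highest share of the 4 in 9 of 12 libraries and Notch2 in the other 3. On the log2 scale the difference was -0.03 ± 0.46 (SE; edgeR adjusted p = 0.978). Of the 9 endothelial markers in the table, Tie1, Cldn5 and Emcn did not exceed 3 counts in any library. The 9 together summed to 2.30 to 5.93 CPM in controls and 1.60 to 35.5 CPM in Isl1CKO. The 35.5 CPM was that of Isl1CKO 3, where Kdr alone stood at 27.7 CPM, and the other Isl1CKO libraries reached 6.75 CPM at most.

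Jag2 was the member with a called difference. It encodes a Jagged ligand with a large extracellular part of repeated epidermal growth factor units, known in the cochlea from hair cells, and lies on chromosome 12 at 112907819 to 112929776, minus strand (ENSMUSG00000002799), with no exonic overlap with another gene. In control replicates 1 to 6 Jag2 stood at 10.9, 20.3, 26.2, 20.7, 17.5 and 9.22 CPM. In Isl1CKO replicates 1 to 6 it stood at 10.2, 12.7, 6.77, 5.68, 6.13 and 9.53 CPM. Controls 2 to 5 lay above every Isl1CKO library, whereas controls 1 and 6 fell within the Isl1CKO range, and Isl1CKO 3, 4 and 5 lay below every control. The mean fell from 17.5 ± 6.43 to 8.51 ± 2.77 CPM (SD, n = 6), a ratio of 0.487, or -1.04 ± 0.29 on the log2 scale (SE; edgeR adjusted p = 0.0351). Its spread was ordinary for its abundance, with a coefficient of 0.370 beside a median of 0.357 in 1782 like genes.

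The direction of Jag2 was the same in all 23 alternative settings, with log2 fold changes from -1.19 to -0.78, but the call held in only 10 of them. Leaving out any of Isl1CKO 3, 4, 5 or 6, or of controls 2, 3, 4 or 5, gave edgeR adjusted p of 0.0556 to 0.0791. Without the 3 libraries holding transcripts of both sexes the log2 difference was -1.05 (edgeR adjusted p = 0.160). With Schwann cell and macrophage marker levels as covariates it was -0.78 (edgeR adjusted p = 0.279), and with the cell cycle marker level -1.15 (edgeR adjusted p = 0.0607). Macrophage markers summed to 3.26 to 366 CPM in controls and 1.86 to 774 CPM in Isl1CKO, and Schwann and satellite cell markers to 32.1 to 239 CPM and 37.6 to 513 CPM. Hair cell markers, of which Pvalb and Ccer2 fell, summed to 573 to 896 CPM in controls and 386 to 717 CPM in Isl1CKO. Myo6 reached the highest levels of this list, at 240.6 to 485.5 CPM in controls and 279.9 to 573.6 CPM in Isl1CKO, and did not pass. Pvalb spanned 141.4 to 441.9 CPM in controls and 4.63 to 82.0 CPM in Isl1CKO. The defining factor Pou4f3 lay between 0 and 2.67 CPM over all libraries, and Gfi1, Otof and Myo7a reached at most 0.332, 7.26 and 15.2 CPM. Cib2 spanned 55.5 to 76.9 CPM in controls and 40.7 to 82.4 CPM in Isl1CKO. Most of the sum was therefore Myo6, Pvalb and Cib2, and it does not measure hair cell content. The part of cells with these markers in the Jag2 difference was not tested.

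**Figure D2:**
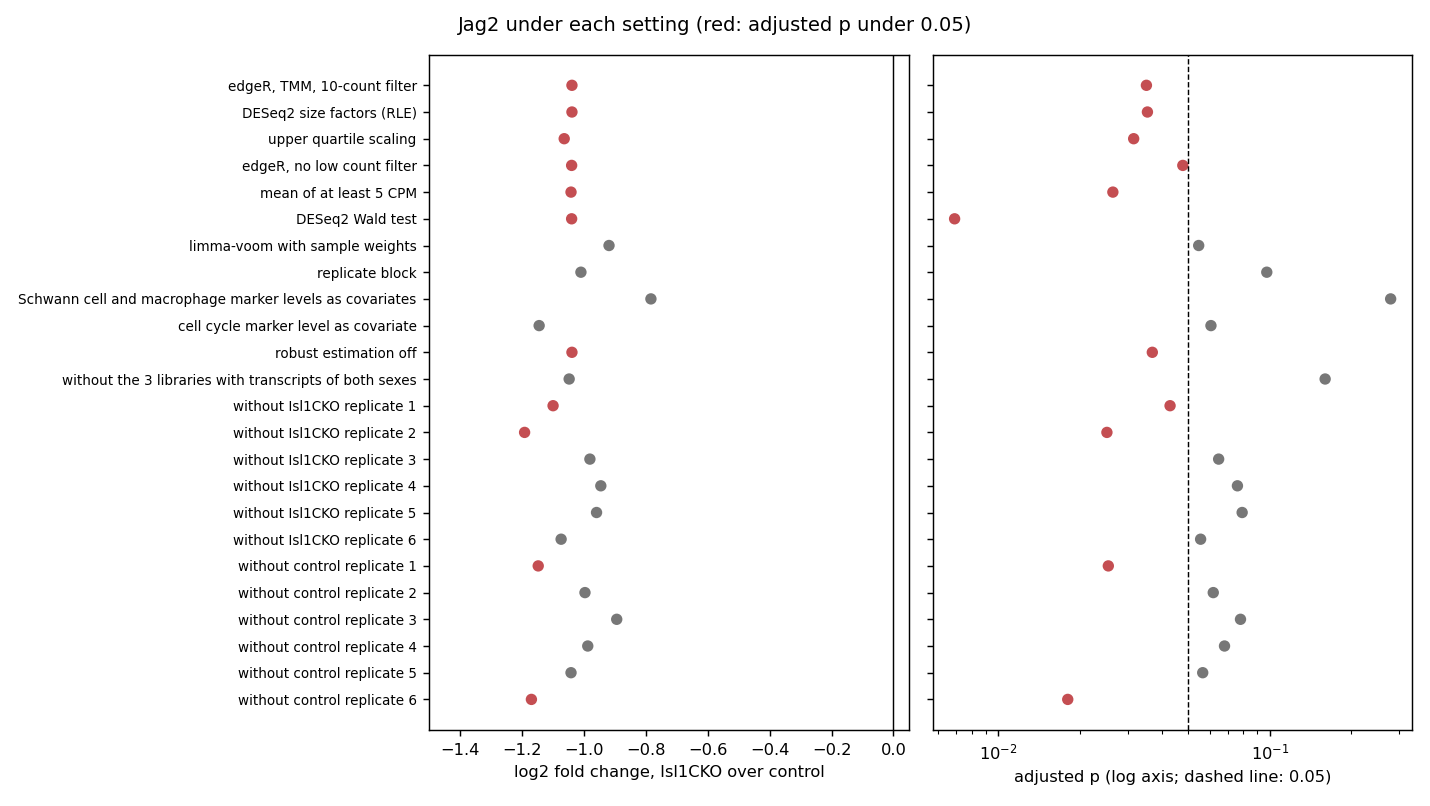
Jag2 under the reported test and 23 alternative settings, with the log2 fold change of Isl1CKO over control on the left and the adjusted p (log axis, dashed line at 0.05) on the right; red points pass. The fold change stays between -1.19 and -0.78, while the adjusted p moves from 0.00689, with DESeq2, to 0.279.

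The window at the RefSeq start of Jag2 is shown because this was the member called. It runs from 250 bases before to 50 bases after that transcript start on GRCm38.p6 (chr12:112929446-112929745, minus strand), printed 5′ to 3′. By GENCODE the gene starts further upstream, at 112929776, so the whole window lies inside the gene. Sequence upstream of the GENCODE start was not examined. Capitals would mark the RBPJ core TGGGAA on either strand or the E-box CANNTG, the site of proneural factors. Neither set of letters occurs in the window.
Jag2: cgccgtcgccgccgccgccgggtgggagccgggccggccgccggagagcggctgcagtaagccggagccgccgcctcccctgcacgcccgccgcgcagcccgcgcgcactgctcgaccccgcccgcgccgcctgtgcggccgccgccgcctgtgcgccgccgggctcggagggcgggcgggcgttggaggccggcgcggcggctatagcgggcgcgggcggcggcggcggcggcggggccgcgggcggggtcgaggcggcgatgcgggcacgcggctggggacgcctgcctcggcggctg
The window was 86% G or C, more than 99.9% of the 32851 windows of this length, and held 63 CG pairs. Of all windows, 25.6% held TGGGAA on either strand and 72.3% held CANNTG.

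Jag1, the other Jagged ligand and a mark of prosensory cells in the developing cochlea, did not pass the test. It lies on chromosome 2 at 137081456 to 137116644, minus strand. In control replicates 1 to 6 Jag1 stood at 3.99, 14.1, 13.4, 14.2, 22.0 and 19.6 CPM, and in Isl1CKO replicates 1 to 6 at 10.8, 23.9, 10.4, 7.47, 22.3 and 18.1 CPM. Control 1 was the lowest library of all, and the groups covered nearly the same range. The means were 14.6 ± 6.24 and 15.5 ± 6.89 CPM (SD, n = 6), with a log2 difference of 0.09 ± 0.37 (SE; edgeR adjusted p = 0.918). The estimate changed sign in 5 of 23 alternative settings. Whether Jag1 and Jag2 differed in their response was not tested. Otic epithelium markers, a list with the prosensory gene Sox2, summed to 59.2 to 92.2 CPM in controls and 13.3 to 60.8 CPM in Isl1CKO. Only Sox9 and Otol1 of the list passed, both lower. Sox9 spanned 40.6 to 72.7 CPM in controls and 4.29 to 30.9 CPM in Isl1CKO. The highest library was an Isl1CKO library for Cdh1, Oc90, Fbxo2, Sox2, Krt18 and Krt8, and a control for Epcam and Pax2. Sox2 reached at most 1.90 CPM in controls and 3.96 CPM in Isl1CKO.

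Dll1 varied widely between libraries of both groups. It (chromosome 17, 15367354 to 15376872, minus strand) encodes the ligand that neuroblasts show to their neighbours. In control replicates 1 to 6 Dll1 stood at 1.33, 15.2, 19.4, 4.59, 11.1 and 13.1 CPM, and in Isl1CKO replicates 1 to 6 at 11.6, 3.03, 2.79, 9.71, 3.35 and 0.686 CPM. Controls 2, 3 and 6 lay above every Isl1CKO library and Isl1CKO 6 below every control, while the other 8 libraries overlapped. The mean was 10.8 ± 6.73 CPM in controls and 5.19 ± 4.36 CPM in Isl1CKO (SD, n = 6). The log2 fold change of -1.06 was as large as that of Jag2, but its standard error was 0.64 and it did not pass (edgeR adjusted p = 0.351; 0.205 to 0.805 over 23 alternatives). The coefficient of variation of Dll1, 0.749, exceeded that of 92.0% of 1566 tested genes of like abundance, with counts from 9 in Isl1CKO 6 to 232 in control 3. Dll1 shares 867 exonic bases with A930024N18Rik on the opposite strand, and the use of strand in counting is not given in the sources used here.

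Dll3 (chromosome 7, 28293553 to 28302238, minus strand), a divergent Delta protein that acts inside the cell that makes it, spanned 3.09 to 11.4 CPM in controls and 3.56 to 8.68 CPM in Isl1CKO. The medians were 8.15 and 4.91 CPM and the groups overlapped. On the log2 scale the difference was -0.38 ± 0.36 (SE; edgeR adjusted p = 0.583), and the sign stayed negative in all 23 alternatives. Dll4 (chromosome 2, 119325784 to 119335962, plus strand), the Delta ligand of sprouting vessels, exceeded 3 counts in control 6 and Isl1CKO 6 only, with 8 and 24 counts. It was not tested by the main rule, and with no filter did not pass (log2 fold change 0.94, edgeR adjusted p = 0.743).

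Per kilobase of exon the 4 detectable ligands were close to each other, with means of 2.58 for Jag1, 2.31 for Dll3, 1.89 for Dll1 and 1.87 CPM per kb for Jag2 over the 12 libraries. The leading ligand changed from library to library: Jag1, Dll3 and Dll1 each led in 4, and Jag2 in 0. This order, the shares and the sum below rest on the merged exon lengths. Other lengths could reorder levels this close. The share of Jag2 in the summed Delta and Jagged level had a median of 27.97% in controls (11.1% to 37.8%) and 17.7% in Isl1CKO (10.2% to 22.5%). Jag1 took a median of 23.0% in controls and 36.3% in Isl1CKO, and Dll1 23.7% and 10.8%. The sum itself was 4.14, 11.4, 11.8, 9.79, 12.2 and 12.0 CPM per kb in control replicates 1 to 6, and 7.31, 8.11, 5.30, 6.00, 8.61 and 7.98 CPM per kb in Isl1CKO replicates 1 to 6. All controls but control 1, the lowest library of all, lay above every Isl1CKO library. The sum was not tested. Of its parts Jag2 alone passed, and Jag1 was not lower in Isl1CKO. Control 1 carried the most macrophage marker counts of the controls (366 CPM against 3.26 to 69.0 CPM in the others), and their part in its low ligand level was not tested.

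**Figure D3:**
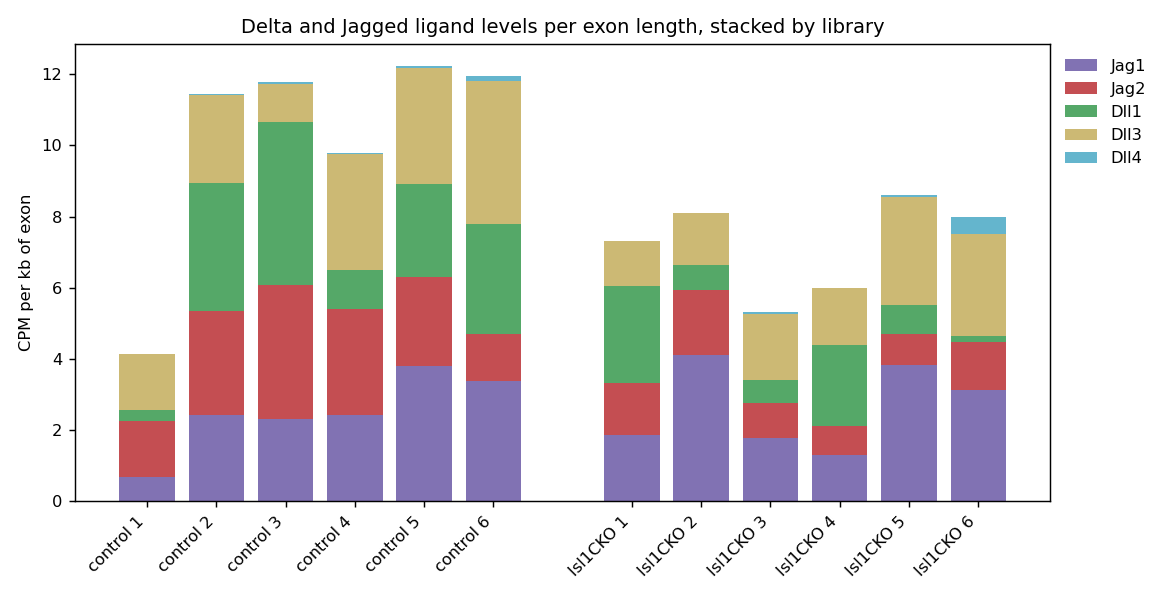
Summed level of the Delta and Jagged ligand genes in CPM per kilobase of exon, stacked by gene in each of the 6 control and 6 Isl1CKO libraries. Controls 2 to 6 reach 9.79 to 12.2 and the Isl1CKO libraries 5.30 to 8.61, while control 1 stands at 4.14. The sum was not tested.

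Dlk1 (chromosome 12, 109452823 to 109463336, plus strand), a membrane protein of the Delta type that lacks the region with which classical ligands engage the receptor, was barely detected. Its counts ran from 0 to 11 in controls and from 3 to 15 in Isl1CKO, and it was not tested by the main rule. With no filter its log2 fold change of 0.66 did not pass (edgeR adjusted p = 0.757).

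Lfng encodes lunatic fringe, which adds a sugar to NOTCH and so shifts its preference from Jagged to Delta ligands (chromosome 5, 140607320 to 140615545, plus strand). Its counts were 15, 0, 2, 2, 4 and 1 in control replicates 1 to 6, and 16, 26, 10, 18, 42 and 1 in Isl1CKO replicates 1 to 6. Isl1CKO 1 to 5 except replicate 3 lay above every control, whereas Isl1CKO 6 was as low as the controls and control 1 nearly as high as Isl1CKO 1. The means were 0.325 ± 0.464 and 1.42 ± 1.03 CPM (SD, n = 6), and the gene did not enter the main test. With no filter the log2 difference was 2.10 (edgeR adjusted p = 0.237), and it passed in none of the other 8 settings in which it was abundant enough to enter (adjusted p from 0.107 to 0.609).

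The rest of the pathway was read from a list of 44 further genes, of which 40 were tested and 6 passed, 4 higher and 2 lower in Isl1CKO (edgeR, same threshold). That share of 15.0% stands beside the 10.2% of all tested genes, and the median log2 fold change of 0.01 beside 0.0045. The groups did not overlap for 5 of the 40 (12.5%, against 6.78% of all tested genes). The count fell to 3, namely Neurl1a, Kdm5a and Dtx3, with Schwann cell and macrophage marker levels as covariates, and to 1, Neurl1a, without the 3 libraries holding transcripts of both sexes.

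Neurl1a, a neuralized-type ubiquitin ligase that acts on Notch ligands, rose most. It lies on chromosome 19 at 47178820 to 47259441, plus strand. In control replicates 1 to 6 Neurl1a stood at 0.0831, 0.740, 0.584, 0.148, 0.634 and 0.146 CPM, from 1 to 10 counts. In Isl1CKO replicates 1 to 6 it stood at 7.52, 4.97, 4.29, 9.04, 12.2 and 4.72 CPM, from 57 to 167 counts. Every Isl1CKO library lay well above every control. The mean rose from 0.389 ± 0.294 to 7.12 ± 3.09 CPM (SD, n = 6), which is 4.16 ± 0.56 on the log2 scale (SE; edgeR adjusted p = 1.86e-04). It passed in all 22 alternative settings in which it was tested. The other ligases acting on ligands did not pass, with log2 fold changes of 0.23 for Mib1, 0.02 for Mib2 and 0.47 for Neurl1b. Neurl1a shares 690 exonic bases with unnamed neighbouring genes, so part of its counts is uncertain.

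The window at its start is shown because Neurl1a had the largest change in the pathway. It holds 1 E-box, in capitals, that begins 6 bases before the transcript start, and no TGGGAA (RefSeq, GRCm38.p6, chr19:47178570-47178869, plus strand).
Neurl1a: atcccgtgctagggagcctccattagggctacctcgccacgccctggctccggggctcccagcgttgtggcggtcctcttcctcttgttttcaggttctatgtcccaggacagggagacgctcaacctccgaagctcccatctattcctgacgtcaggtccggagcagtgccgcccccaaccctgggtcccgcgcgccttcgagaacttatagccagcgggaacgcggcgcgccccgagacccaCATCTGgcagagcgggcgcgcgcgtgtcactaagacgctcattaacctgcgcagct

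Of the enzymes that add sugars to NOTCH, Mfng (manic fringe, chromosome 15, 78755882 to 78773475) rose and the other 3 did not pass. Mfng spanned 63.8 to 144 CPM in controls and 127 to 268 CPM in Isl1CKO, with 4 Isl1CKO libraries above every control. On the log2 scale the difference was 0.78 ± 0.20 (SE; edgeR adjusted p = 0.0235). The call was kept in 15 of 23 alternatives and lost without Isl1CKO 2, 4, 5 or 6 or control 3 (edgeR adjusted p from 0.0503 to 0.0594). It was also lost with either set of marker covariates, and without the 3 libraries holding transcripts of both sexes (0.83, edgeR adjusted p = 0.102). Rfng, radical fringe, differed by -0.19 on the log2 scale (edgeR adjusted p = 0.433). Per kilobase of exon, the group means of Mfng in controls and Isl1CKO were 40.8 and 70.1 CPM per kb and those of Rfng 32.6 and 28.6, whereas Lfng lay at 0.130 and 0.567 CPM per kb.

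Of 10 genes for proteases that cut NOTCH and their subunits, 1 rose and 1 fell, beside 10.2% of all tested genes called. Adam17, a membrane protease that sheds many surface proteins, went from 20.1 ± 2.50 to 32.3 ± 6.11 CPM (SD, n = 6), with all 6 Isl1CKO libraries above all controls. On the log2 scale the difference was 0.68 ± 0.16 (SE; edgeR adjusted p = 0.0114). The Adam17 call ended with the Schwann cell and macrophage covariates (0.52, edgeR adjusted p = 0.149) and without the 3 libraries holding transcripts of both sexes (0.69, edgeR adjusted p = 0.0646). Psenen, a subunit of gamma-secretase, went from 55.02 ± 7.385 to 40.1 ± 4.31 CPM (SD, n = 6), with all 6 below all controls and a log2 difference of -0.46 (edgeR adjusted p = 0.0238). Its call ended with the same covariates (-0.39, edgeR adjusted p = 0.173), with the cell cycle covariate, without those 3 libraries (-0.52, edgeR adjusted p = 0.0747), and without Isl1CKO 5 or control 6 (edgeR adjusted p of 0.0572 and 0.0563). Adam10, the protease that makes the ligand-dependent cut, stood at 180 and 173 CPM in controls and Isl1CKO and did not pass (edgeR adjusted p = 0.872).

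In the nuclear complex, Rbpj, the DNA-binding partner of cleaved NOTCH, stood at 51.0 ± 9.27 and 49.4 ± 5.12 CPM (SD, n = 6), which is -0.05 ± 0.13 on the log2 scale (SE; edgeR adjusted p = 0.877). The coactivator genes Maml1, Maml2 and Maml3 did not pass either. Kdm5a, a histone demethylase that RBPJ recruits, rose by 0.33 ± 0.08 on the log2 scale (SE; edgeR adjusted p = 0.0114). Among 8 genes of NOTCH trafficking and turnover Dtx3, of the Deltex ligase family, fell by 0.46 on the log2 scale (edgeR adjusted p = 0.0123). It was the 1 gene called of the 8 (12.5%, beside 10.2% of all tested genes). Its relative Dtx4 went the other way by 0.91 and did not pass (edgeR adjusted p = 0.0650, with a call in 3 of 23 alternatives). Dtx1 and Dtx2 differed by -0.01 and -0.03. Without the 3 libraries holding transcripts of both sexes neither Kdm5a nor Dtx3 passed, with Kdm5a at 0.24 (edgeR adjusted p = 0.210) and Dtx3 at -0.36 (edgeR adjusted p = 0.159). Numb, which is sorted unequally between daughter cells, stood at 30.8 and 31.0 CPM. Among the further ligands Dner, a Delta-like protein of neurons, was abundant at 184 ± 27.1 and 181 ± 43.6 CPM (SD, n = 6) and did not pass (edgeR adjusted p = 0.934).

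**Figure D4:**
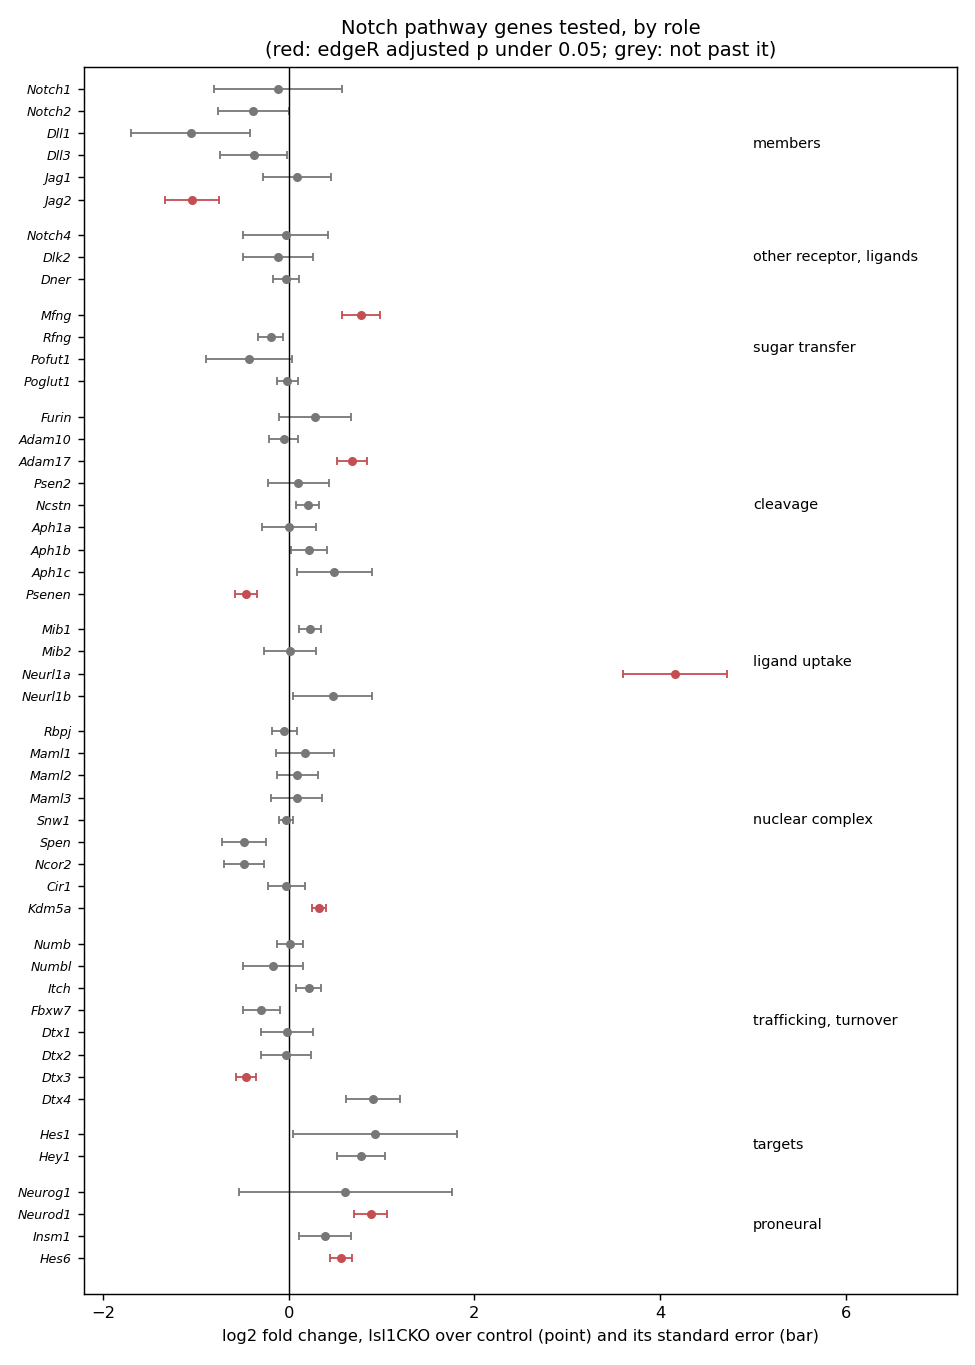
Log2 fold change of Isl1CKO over control (points) with its standard error (bars), grouped by role. Shown are the 6 tested members, further tested pathway genes (all but 1) and 4 genes of the proneural list. Red points pass an adjusted p of 0.05. Neurl1a stands apart at 4.16, and Jag2 is the red point among the members.

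Of the 6 classic target genes of the pathway 2 were abundant enough to be tested, and 0 passed in edgeR, with 1, Hey1, at an unadjusted p under 0.05. Hes1, Hes5, Hey2, Heyl and Nrarp each averaged less than 2 CPM in both groups, and Hey1 was the target found at 10 CPM or more in most libraries. Hey1 stood at 10.47, 12.1, 15.6, 19.0, 11.02 and 8.49 CPM in control replicates 1 to 6 and at 11.01, 24.1, 24.2, 29.0, 27.1 and 16.2 CPM in Isl1CKO replicates 1 to 6. Isl1CKO 2 to 5 lay above every control, yet the log2 fold change, 0.78 ± 0.26 (SE), did not pass (edgeR adjusted p = 0.0740, with a call in 4 of 23 alternatives). Hes1 differed by 0.93 ± 0.88 on the log2 scale (SE; edgeR adjusted p = 0.580).

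Hes5 was detected at a very low level. Its counts were 20, 8, 34, 13, 7 and 17 in control replicates 1 to 6 and 4, 0, 0, 1, 7 and 3 in Isl1CKO replicates 1 to 6. After scaling, all 6 Isl1CKO libraries lay below all controls, although the highest of the former (0.511 CPM) and the lowest of the latter (0.555 CPM) each rest on 7 counts. It did not enter the main test. With no filter the log2 difference was -2.73 (edgeR adjusted p = 0.0892), and 5.36% of 25674 genes passed in that fit. Hes5 shares 433 exonic bases with Gm20421 on the opposite strand.

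The Hes5 promoter window is given as an example of a Notch target with RBPJ core letters (RefSeq, GRCm38.p6, chr4:154960673-154960972, plus strand). Capitals mark TGGGAA or its reverse complement, both upstream of the transcript start.
Hes5: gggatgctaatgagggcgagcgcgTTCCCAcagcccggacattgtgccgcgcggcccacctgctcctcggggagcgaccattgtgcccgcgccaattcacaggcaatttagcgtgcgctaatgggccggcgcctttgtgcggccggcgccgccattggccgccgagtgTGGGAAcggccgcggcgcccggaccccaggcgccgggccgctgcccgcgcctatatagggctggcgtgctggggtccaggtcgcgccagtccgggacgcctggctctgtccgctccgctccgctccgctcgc
Of the members with a window, Lfng alone held such letters, with 2 matches. Notch1, Notch2, Notch3, Dll1, Dll3, Dll4, Jag1, Jag2 and Dlk1 held 0. Of all windows, 25.6% held them. By GENCODE positions the windows of Notch1, Dll3 and Jag2, and a window of Dll1, lay wholly inside the gene. For Notch1, Dll3 and Jag2 the count of 0 therefore does not cover the sequence upstream of the GENCODE start.

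**Figure D5:**
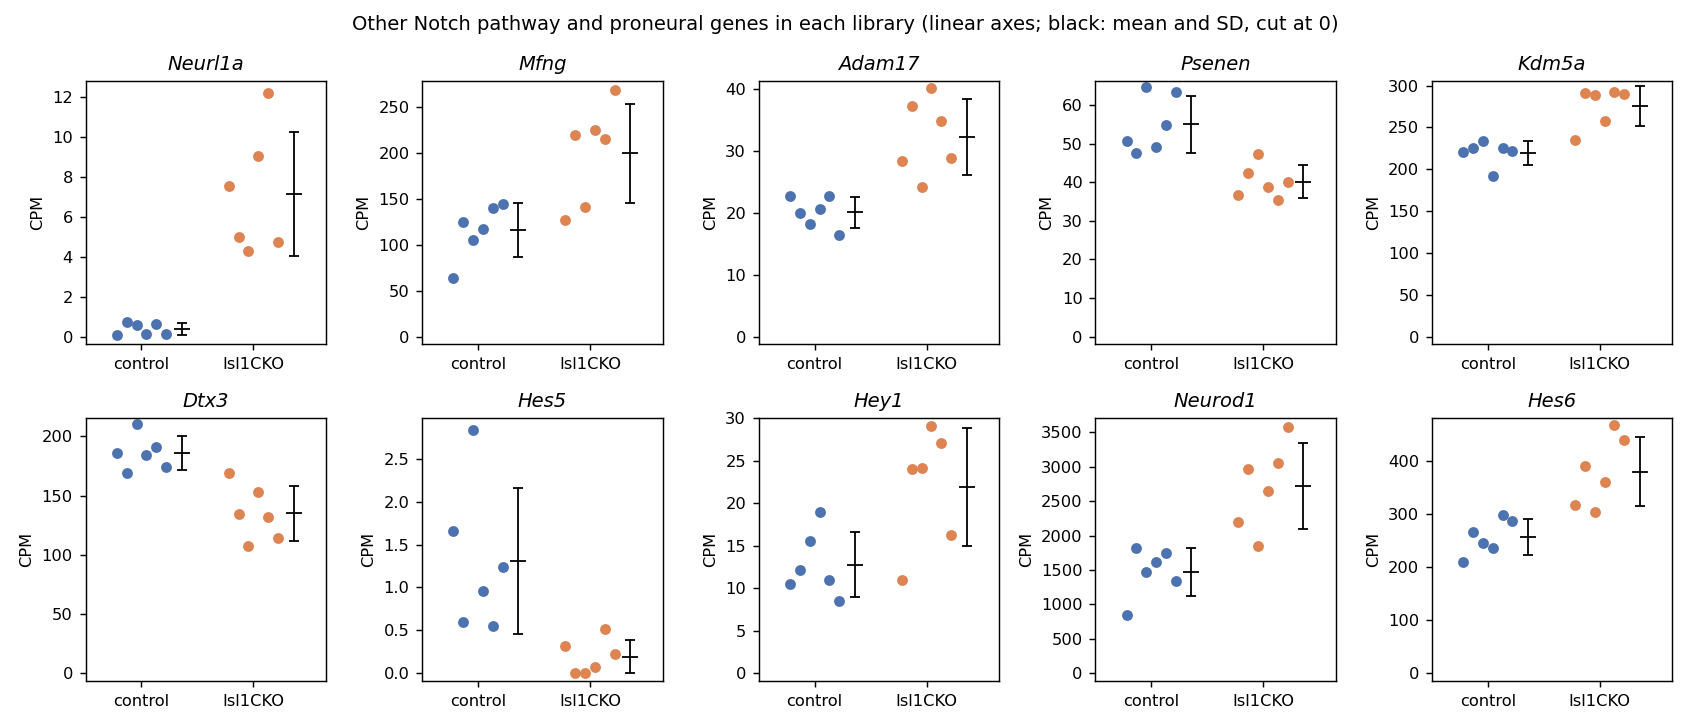
Level in CPM (linear vertical axes starting at 0) of 8 further Notch pathway genes and of Neurod1 and Hes6 from the proneural list. Each library gives 1 point, in replicate order, and the mean with its SD is in black. Neurl1a, Adam17, Kdm5a, Neurod1 and Hes6 are higher in all 6 Isl1CKO libraries, and Psenen, Dtx3 and Hes5 lower.

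A list of 7, called proneural here, held proneural factors, which raise Delta expression in neuroblasts, and the related genes Insm1 and Hes6. Of the 4 tested, Neurod1 and Hes6 rose, both without overlap of the groups, where 5.01% of all tested genes were called higher and 6.78% did not overlap. Insm1 and Neurog1 did not pass. Neurod1 averaged 1471 ± 351 CPM in controls and 2715 ± 621 CPM in Isl1CKO (SD, n = 6), with all 6 Isl1CKO libraries above all controls. On the log2 scale the difference was 0.88 ± 0.18 (SE; edgeR adjusted p = 0.00435), and the call held in all 23 alternatives. The Cre transgene carries Neurod1 sequence in both genotypes, and its transcripts and those of the native gene cannot be told apart in these counts. Hes6, an antagonist of HES1, went from 257 ± 33.8 to 380 ± 65.8 CPM (SD, n = 6), again without overlap, a log2 difference of 0.56 (edgeR adjusted p = 0.00561, kept in all 23 alternatives). Neurog1, the factor that starts otic neurogenesis, stood at 0.619 ± 0.683 and 0.955 ± 0.931 CPM (SD, n = 6).

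After subtracting group means, log2(CPM + 1) of each tested member was related to the mean level of Schwann and satellite cell, endothelial, macrophage and cell cycle markers across the 12 libraries, and none of the 24 relations passed (permutation within groups, adjusted p under 0.05). The closest was that of Jag1 with macrophage markers, where Pearson's r was -0.835 (permutation p = 0.00226, or 0.0542 adjusted) and rank order gave a Spearman's rho of -0.734 (permutation p = 0.0156, or 0.214 adjusted). Dropping the 2 libraries with macrophage levels farthest from the median left r at -0.629, and r was -0.888 within the controls and -0.822 within Isl1CKO. Jag1 with cell cycle markers followed, with r of 0.627 (permutation p = 0.0339, or 0.407 adjusted) and rho of 0.720 (permutation p = 0.0178, or 0.214 adjusted).

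The genes whose pattern over the 12 libraries was most like that of a member, by the same group-centred measure among tested genes of at least 5 CPM, are given as a description, since each is the best of 10870 or 10871 compared. For Jag2 they were Gm37459, Gm43318 and Sh3kbp1 (r of 0.899, 0.890 and 0.879), and for Jag1 Tmbim1, Gm35696 and Flrt1 (r of 0.901, 0.895 and 0.885). For Dll1 they were Smg9, 4930402H24Rik and S100a13 (r of 0.857, 0.836 and 0.832), and for Dll3 Hist1h2bc, Peli1 and Tspan3 (r of 0.915, 0.907 and 0.906). For Notch1 they were Hspa4, Mphosph9 and Map3k12 (r of 0.921, 0.881 and 0.865), and for Notch2 Sema4g, Gtdc1 and Acaa1a (r of 0.899, 0.828 and 0.808). No gene appeared for more than 1 member, and no member appeared for another.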

How the data were processed

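The authors deposited 1 table of raw read counts per Ensembl gene for the 12 samples. The submitters' processing notes name cutadapt 1.18, Bowtie 1.2.2, STAR 2.7.0c, featureCounts and GRCm38.p6, while settings, annotation and strand use are not given in the sources used here. Each column name gave the group and replicate of a sample, and 0 columns were left unmapped. Symbols, positions and exon lengths came from GENCODE release M21 (GRCm38), which located 25620 of 25674 identifiers, and promoter windows from RefSeq (GRCm38.p6). The exon length of a gene is that of all its annotated exons merged.

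Genes were tested with edgeR 4.0.16 in R 4.3.3: filterByExpr with a minimum count of 10, TMM scaling, robust quasi-likelihood F-test, all 12 samples, no covariate, Benjamini-Hochberg adjustment over all tested genes, threshold 0.05. The standard error is the absolute log2 fold change divided by the square root of F. CPM used the TMM-scaled library sizes. Relations used 100000 permutations within groups, 2-sided, with a pseudocount of 1. DESeq2 1.42.0 and limma 3.58.1 served as alternatives, with other scalings, filters, covariates and left-out libraries. The tests were tested on simulated data, where edgeR missed part of the changes of the size seen for Jag2 and Dll1, and DESeq2 made a larger share of false calls than edgeR. No library was present more than once by the chi-square of counts in pairs. The members, lists and alternatives were chosen with earlier results of these data known. Named are all members, pathway and proneural genes past the threshold, the classic targets, and the 3 genes most like each tested member; other pathway genes were named after their values were seen, for their role. Atoh1 and Cdh5 were not analysed here, and 1 pathway gene that enters the counts is not reported here by name.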

Additional observations from a re-analysis of the deposited data

Results flagged for a closer look

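In 8 of 48 group values checked (members, called pathway and proneural genes, and targets), 1 library stood apart from the remaining 5 by Dixon's gap test, which chance alone passes in about 1 of 20 groups, or 2.4 of 48. Most are genes near the floor, where counts are skewed, whereas the rate of 1 in 20 is for values of normal spread. The 48 groups also come from the same 12 libraries. The 8 beside 2.4 therefore cannot be read as an excess over chance. The highest library was control 1 for Notch3 (0.415 CPM, next 0.0834) and for Lfng (1.25 CPM, next 0.317). It was Isl1CKO 6 for Dll4 (1.83 CPM, next 0.219) and Isl1CKO 2 for Dlk1 (1.16 CPM, next 0.554). Among targets, Hey2 was highest in control 5 (2.14 CPM, next 0.334) and, within Isl1CKO, in replicate 2 (0.466 CPM, next 0.0762). Heyl was highest in control 4 among controls (6.89 CPM, next 1.43). The lowest library for Kdm5a was control 4 (192 CPM, next 221 CPM).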

How the results depend on the processing

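Jag2 and Dll1 stayed below 0 in all 23 alternatives, and so did Dll3; Notch2 did in its 22. The number of members called went from 1 to 0 with limma-voom, the replicate block, Schwann cell and macrophage marker covariates, the cell cycle covariate, and without the 3 libraries holding both Xist and Y-linked transcripts, and ranged from 0 to 1 when 1 library was left out. Over all tested genes 1511 were called, 960 with the Schwann cell and macrophage covariates, 767 without those 3 libraries, and 1178 to 1517 with 1 library left out. The 6 further pathway genes called became 3 and 1 under the same settings and 4 to 7 with 1 library left out. With a pseudocount of 0.1, 1 of 24 relations passed, and 0 to 1 with 1 library left out. Notch1 turned to 0.17 with limma-voom, 0.10 without Isl1CKO replicate 3, 0.09 without Isl1CKO replicate 6 and 0.25 without control replicate 2 (log2 fold change; -0.36 to 0.25 with 1 library left out). Jag1 turned to -0.26 with the cell cycle covariate, -0.27 without the 3 libraries, -0.08 without Isl1CKO replicate 2, -0.04 without Isl1CKO replicate 5 and -0.11 without control replicate 1 (-0.11 to 0.24 with 1 library left out). The cause of these changes was not tested.

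Same-numbered samples deviated together little (correlations of -0.0564 to 0.155, 1 of 6 over 0.1). Isl1CKO 1 and 5, but not the others, correlated best with the control of their own number. Correlations this weak cannot decide whether the numbers pair the samples. The replicate block gave 1450 genes, 0 members and 7 further pathway genes, with Jag2 at -1.01 (edgeR adjusted p = 0.0975). Low counts limit Notch3, Dll4, Dlk1, Lfng and Hes5, none of which exceeded 42 counts in any library.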
